A study of Mus musculus with 48 samples.

Results

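The response of AJ5257-1 cells (AJ below), a mouse pancreatic neuroendocrine tumour line, to the ligand activin B was compared between cells that carried an ALK7 plasmid and cells that did not. The libraries were chosen by their labels, as the 4 groups of AJ cells in batch 2 of the series, with 3 libraries each, 12 of 48 libraries and 4 of 16 groups in all. The first group carried the doxycycline (dox) inducible plasmid PB-33 ALK7 and received dox at 2 µg/ml for 24 h and activin B at 50 ng/ml for 24 h. The second carried the same plasmid with the same dox and no ligand. The third carried PB-33 without a receptor, with 0 h of dox and activin B at 50 ng/ml for 24 h. The fourth carried PB-33 with 0 h of dox and no ligand, and is labelled as control. Below, libraries labelled with the ALK7 plasmid are called ALK7 cells and those labelled with PB-33 alone vector cells. Plasmid and dox differ together between them, so what belongs to the receptor and what to dox cannot be told apart, and levels without ligand are given in both for the genes whose effect differed and for many others named. Whether the cells with the plasmid are 1 clone or a pool is not stated in the labels.

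ALK7, encoded by Acvr1c, is a type I receptor of the TGF-β family with serine/threonine kinase activity. Activin B, a dimer of the subunit encoded by Inhbb, binds a type II receptor (Acvr2a or Acvr2b), which phosphorylates a type I receptor, either ALK7 or the related ALK4 (Acvr1b). The type I receptor then phosphorylates SMAD2 and SMAD3, which enter the nucleus with SMAD4 and change transcription, including that of genes whose products restrain the pathway. ALK7 is known from pancreatic islets and fat, where activins and related ligands act on hormone secretion and lipid storage.

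Polyadenylated RNA was sequenced to total counts of 17.98 to 24.12 M reads (M, 1e6) assigned to genes per library. Replicates differed by more than sampling noise, with a chi-square per gene of 6.08 to 13.5. Nothing in the labels beyond plating in triplicate says that replicates were separate cultures, and the spread behind each p-value may be technical. Of 12 neuroendocrine markers all 12 passed the filter on low counts, with a summed level of 9717 to 10107 CPM (read counts scaled to a common library size) in ALK7 cells with activin B, 8770 to 9370 CPM in ALK7 cells without it, 14892 to 15781 CPM in vector cells with it and 12906 to 14534 CPM in vector cells without it. Summed markers of acinar, duct, fibroblast, leukocyte and endothelial cells did not exceed 12.2 CPM in any library. In bulk RNA, fewer cells of a type and less RNA per cell cannot be told apart. Ins2, an insulin gene of the other line of the series, read 5.26 CPM in replicate 3 of ALK7 cells with activin B and at most 0.989 CPM in the other libraries.

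Acvr1c itself (ENSMUSG00000026834, GRCm38 chromosome 2, minus strand) read 3.65, 4.01 and 3.34 CPM in ALK7 cells with activin B and 13.5, 13.4 and 10.3 CPM in ALK7 cells without it, against 4.07, 3.48 and 3.30 CPM in vector cells with activin B and 10.8, 10.4 and 10.2 CPM in vector cells without it. The count of the gene therefore does not check the labels of the plasmid, since the 2 groups without ligand were not called different (log2 difference of ALK7 minus vector cells 0.25, SE 0.122, adjusted p = 0.16). It fell with activin B in both kinds of cells, by 1.76 on the log2 scale in ALK7 cells and by 1.53 in vector cells, and the difference of these effects did not pass (−0.23, SE 0.18, adjusted p = 0.701). Inhbb stayed under the filter on low counts and was not tested. Adjusted p-values here and below are those of edgeR's quasi-likelihood test in 1 fit of the 12 libraries, over 14872 tested genes. A gene rose or fell with activin B, or its effect differed, where that value was under 0.05.

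**Figure D1:**
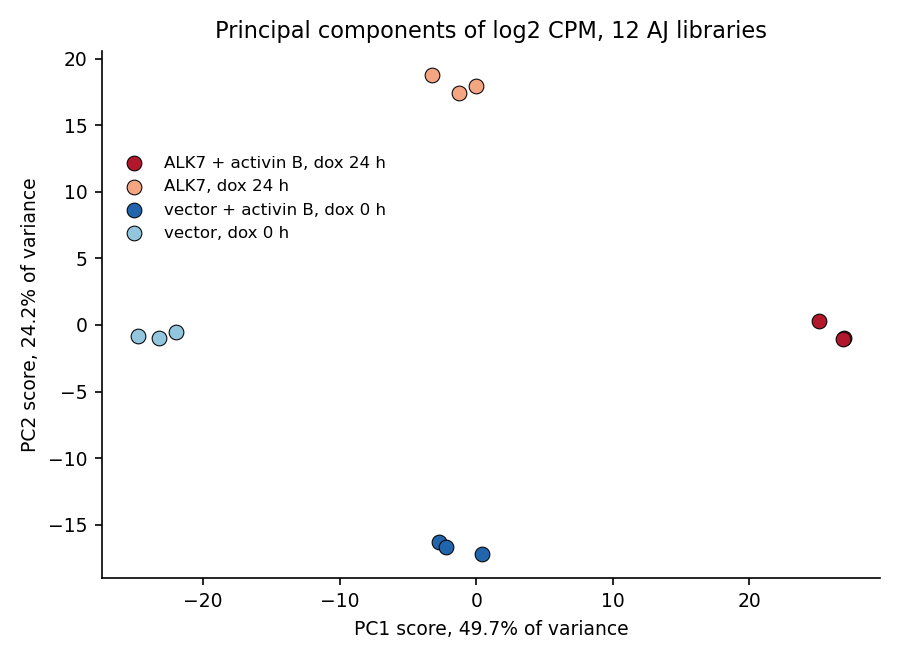
Scores of the 12 libraries on the first 2 principal components of log2 CPM over 10369 genes, with the share of variance on each axis (49.7% and 24.2%) and 1 point per library. ALK7 cells with activin B lie between 25.1 and 27.0 on the first axis, vector cells without ligand between −24.8 and −22.0, and the other two groups near 0 on it and on opposite sides of the second axis.

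The first principal component, with 49.7% of the variance, placed ALK7 cells with activin B at one end and vector cells without it at the other. ALK7 cells without ligand and vector cells with activin B overlapped on that component, between −3.23 and 0.41, and were separated by the second, at 17.5 to 18.8 for ALK7 cells without ligand and −17.2 to −16.3 for vector cells with activin B. Activin B changed 4878 genes in ALK7 cells, 2458 up and 2420 down (32.8% of tested genes), and 3348 genes in vector cells, 1727 up and 1621 down (22.5%). By 2-fold or more, 702 genes changed in ALK7 cells and 443 in vector cells. The 2 effects share no library. Across genes, which are not independent replicates, their log2 changes had a Pearson r of 0.618 and a Spearman rho of 0.634. Both passed in 2698 genes, 55.3% of those called in ALK7 cells and 80.6% of those called in vector cells, and 2679 of these moved the same way, 1375 up and 1304 down.

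The difference of the 2 effects, activin B in ALK7 cells minus activin B in vector cells, passed in 381 genes (2.56% of tested genes). It was positive in 171 and negative in 210, and 65 differed by 2-fold or more (0.437%). By the size of the log2 change, activin B had the larger effect in ALK7 cells for 294 of the 381 and in vector cells for 87. In 79 genes both effects were rises and the one in ALK7 cells was larger, and in 75 both were falls and the one in ALK7 cells was larger. A further 68 rose in ALK7 cells and 61 fell there, while the effect in vector cells did not pass. In 31 genes both rose and the rise in ALK7 cells was the smaller on the log2 scale. The effects were called in opposite directions in 19 genes, 14 of which fell in ALK7 cells and rose in vector cells. The count of 381 was lower in each run without 1 library, at 239 to 363. It was 244 without replicate 1 of ALK7 cells with activin B and 240 without replicate 2 of ALK7 cells without ligand. The lowest, 239, was without replicate 2 of vector cells with activin B. In these runs 235, 231 and 235 of the calls were also among the 381. Such a run also holds fewer libraries, and whether the library itself or the smaller group lowered the count was not tested.

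**Figure D2:**
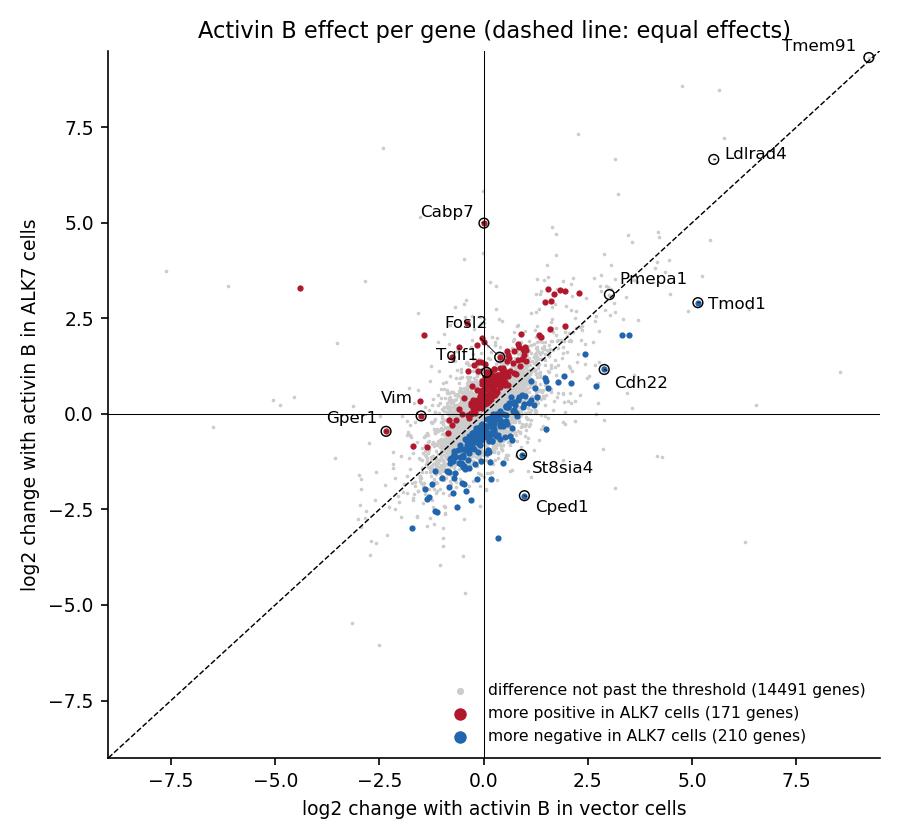
The log2 change with activin B in ALK7 cells (y axis) against that in vector cells (x axis) for each tested gene, with the dashed line at equal effects. Red points are the 171 genes with a positive difference, blue points the 210 with a negative one and grey points those not past the threshold. Circled genes are named in the text, such as Tmod1, which rose in both and by less in ALK7 cells on the log2 scale.

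Of 15 intracellular genes that restrain the pathway, activin B raised 11 and lowered 1 in ALK7 cells, where 16.5% of all tested genes rose and 16.3% fell, and raised 7 and lowered 1 in vector cells, where 11.6% rose and 10.9% fell. The effect differed in 1, Tgif1, and the share of all tested genes that differed was 2.56%. Skil (ENSMUSG00000027660), a SMAD corepressor, read 224, 229 and 202 CPM in ALK7 cells with activin B and 54.1, 53.7 and 51.4 CPM without it, against 134, 129 and 112 CPM in vector cells with activin B and 30.7, 33.8 and 29.1 CPM without it. The groups did not overlap, and Skil started higher in ALK7 cells without ligand (log2 difference 0.77, adjusted p = 1.97e-05). Its rise was 4.11-fold in ALK7 cells and 4.01-fold in vector cells, a log2 difference of 0.04 (SE 0.108, adjusted p = 0.954). Pmepa1, a membrane protein that binds SMAD2 and SMAD3, read 114, 114 and 109.6 CPM in ALK7 cells with activin B and 11.5, 12.1 and 15.2 CPM without it, against 71.6, 69.8 and 71.7 CPM in vector cells with activin B and 7.91, 7.36 and 11.1 CPM without it. Its rises of 8.69-fold and 8.09-fold did not pass as different (0.10, SE 0.176, adjusted p = 0.893). Bambi, a decoy receptor, rose by 0.81 on the log2 scale in ALK7 cells and by 0.86 in vector cells (difference −0.05, SE 0.0645, adjusted p = 0.835).

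Smad7, the inhibitory SMAD that blocks type I receptors, read 54.0, 52.7 and 53.1 CPM in ALK7 cells with activin B and 6.57, 7.25 and 5.76 CPM without it, against 28.6, 32.2 and 25.3 CPM in vector cells with activin B and 5.56, 5.07 and 4.99 CPM without it. It rose in both, by 8.16-fold in ALK7 cells and 5.50-fold in vector cells, and the difference lay just outside the threshold (0.57, SE 0.14, adjusted p = 0.0599). That difference passed with DESeq2, with a replicate block (adjusted p = 0.0229) and without replicate 2 of vector cells with activin B. Over its alternatives without a replicate block the adjusted p ran from 0.029 to 0.154. Ldlrad4, which also restrains SMAD2 and SMAD3, rose to 36.9, 35.5 and 41.2 CPM in ALK7 cells with activin B, against 0.444, 0.223 and 0.431 CPM without it, and to 8.04, 8.79 and 7.69 CPM in vector cells with activin B, against 0.136, 0.39 and 0 CPM without it. With so few counts in the groups without ligand, the difference of its log2 changes had an SE of 0.685 and did not pass (1.14, adjusted p = 0.561). It overlaps Fam210a on the other strand. Smad6, the inhibitory SMAD of the BMP branch, rose in both as well (log2 change 4.67 in ALK7 cells and 3.46 in vector cells, difference 1.21, SE 0.678, adjusted p = 0.515).

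Tgif1 and Klf10 were the members of the SMAD2/3 target list whose activin B effect differed. Tgif1 (ENSMUSG00000047407, GRCm38 chromosome 17, 70844205 to 70853546, minus strand) encodes a homeodomain corepressor of SMADs. It read 32.0, 31.5 and 29.9 CPM in ALK7 cells with activin B and 14.2, 14.9 and 14.9 CPM without it, against 13.8, 14.2 and 14.01 CPM in vector cells with activin B and 12.7, 14.4 and 12.9 CPM without it. The 3 libraries of ALK7 cells with activin B stood apart and the other 9 lay within 12.7 to 14.9 CPM. It rose 2.12-fold in ALK7 cells, the effect in vector cells did not pass (log2 change 0.07, adjusted p = 0.524), and the effects differed by 1.02 (SE 0.0876, adjusted p = 0.000105). Without ligand it did not pass between ALK7 and vector cells (log2 difference 0.14, adjusted p = 0.136). Klf10, an early TGF-β response factor, rose in both and by more in ALK7 cells (difference 0.44, SE 0.0985, adjusted p = 0.0383), a call lost in 10 of 18 alternatives. Without ligand Klf10 averaged 30.05 ± 2.71 CPM in ALK7 cells and 32.2 ± 1.15 CPM in vector cells (SD, n = 3 each).

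Over the list of SMAD2/3 target genes, 23 of 30 members passed the filter on low counts. Activin B raised 17 of the 23 in ALK7 cells, where 16.5% of all tested genes rose, and 13 in vector cells, where 11.6% did, and lowered none in either. Their median log2 change was 1.0 in ALK7 cells and 0.51 in vector cells. The effect differed in 2, both more positive in ALK7 cells, where 1.15% of all tested genes differed that way, and the median difference was 0.35. Over all tested genes the medians were 0.00074, −0.0022 and −0.00023. Sox4, a transcription factor gene, read 117, 119.9 and 104 CPM in ALK7 cells with activin B and 25.3, 25.5 and 23.9 CPM without it, against 61.6, 60.3 and 52.3 CPM in vector cells with activin B and 11.7, 10.6 and 11.6 CPM without it. It started 2.20-fold higher in ALK7 cells without ligand and its log2 changes with activin B were 2.19 and 2.36, a difference that did not pass (−0.17, SE 0.108, adjusted p = 0.595). Bmf, which encodes a BH3-only protein of the apoptosis pathway, rose 6.52-fold in ALK7 cells and 4.30-fold in vector cells (difference 0.60, SE 0.179, adjusted p = 0.122), and averaged 4.70 CPM in ALK7 cells and 2.53 CPM in vector cells without ligand.

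The promoters of Tgif1, whose rise differed, and of Sox4, whose rise did not pass as different, are shown as the 250 bases before a RefSeq start on GRCm38.p6. The Tgif1 window, the first of 5 that RefSeq lists, is at chr17:70853533-70853782 and the Sox4 window at chr13:28953700-28953949, both on the minus strand and written 5′ to 3′ along the gene. Capitals mark the SMAD box CAGAC on either strand.
Tgif1: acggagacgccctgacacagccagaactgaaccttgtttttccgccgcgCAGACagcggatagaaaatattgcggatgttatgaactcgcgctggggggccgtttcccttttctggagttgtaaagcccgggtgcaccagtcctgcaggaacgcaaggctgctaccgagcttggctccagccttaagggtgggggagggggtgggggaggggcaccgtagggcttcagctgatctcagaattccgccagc
Sox4: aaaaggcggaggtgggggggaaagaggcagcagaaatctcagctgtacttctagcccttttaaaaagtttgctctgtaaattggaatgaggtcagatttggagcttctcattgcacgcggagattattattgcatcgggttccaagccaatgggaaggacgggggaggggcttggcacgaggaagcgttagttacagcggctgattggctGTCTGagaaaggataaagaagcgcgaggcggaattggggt
Each window held the box 1 time, as did 42.2% of 32851 such windows of all genes at least once. Of the windows of genes with a positive difference 43.1% held it, of those with a negative difference 46.4%, and of those of tested genes 40.3%. Neither window held the SMAD palindrome GTCTAGAC (0.167% of all windows), the AP-1 site TGACTCA on either strand (4.46%) or the cyclic AMP element TGACGTCA (1.55%), motifs that were searched on both strands and share no match with the box. A match is a description of these letters and not a site of binding.

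Among receptors, SMADs and ligands the effect of activin B differed in 1 member, Smad9. Smad9, a receptor SMAD of the BMP branch, read 75.4, 74.8 and 74.6 CPM in ALK7 cells with activin B and 25.0, 24.8 and 22.2 CPM without it, against 56.5, 54.5 and 56.4 CPM in vector cells with activin B and 27.97, 28.9 and 29.4 CPM without it. It rose 3.12-fold in ALK7 cells and 1.94-fold in vector cells, and the effects differed by 0.69 (SE 0.0694, adjusted p = 0.000307), a call held in each of 18 alternatives. The difference did not pass for Smad2 (−0.04, SE 0.0559), Smad3 (0.11, SE 0.383) or Smad4 (0.07, SE 0.0849), nor for the receptors Acvr1b (−0.02, SE 0.0777), Acvr2a (0.04, SE 0.0979), Acvr2b (0.13, SE 0.222) and Tgfbr1 (0.19, SE 0.124). Of 10 tested receptors 0 differed, while 5 rose and 1 fell with activin B in ALK7 cells and 2 rose and 1 fell in vector cells. Of all tested genes 16.5% rose and 16.3% fell in ALK7 cells. The receptor counts in vector cells and the 0 that differed are near the shares of all tested genes, 11.6% up, 10.9% down and 2.56% differing. Acvr1b rose in both, by 0.35 and 0.37 on the log2 scale. Of 10 tested ligands 0 differed, and Tgfb1 rose in both (log2 change 3.63 and 2.80) at levels of at most 2.53 CPM. Of 6 tested secreted antagonists 0 differed. Follistatin (Fst), which binds activins, was under the filter, at 0.876, 1.03 and 0.449 CPM in ALK7 cells with activin B and at most 0.388 CPM in the other 9 libraries.

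Bmp7, a BMP ligand, differed widely between the groups without ligand. It read 0.341, 0.587 and 0.571 CPM in ALK7 cells with activin B and 13.5, 12.6 and 12.98 CPM without it, against 0, 0.0915 and 0.055 CPM in vector cells with activin B and 0.0904, 0.111 and 0 CPM without it. Activin B lowered it in ALK7 cells (log2 change −4.68, adjusted p = 1.59e-07). In vector cells both groups held 3 or 4 counts, so that a fall could not be read there, and the difference did not pass (adjusted p = 0.0898).

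**Figure D3:**
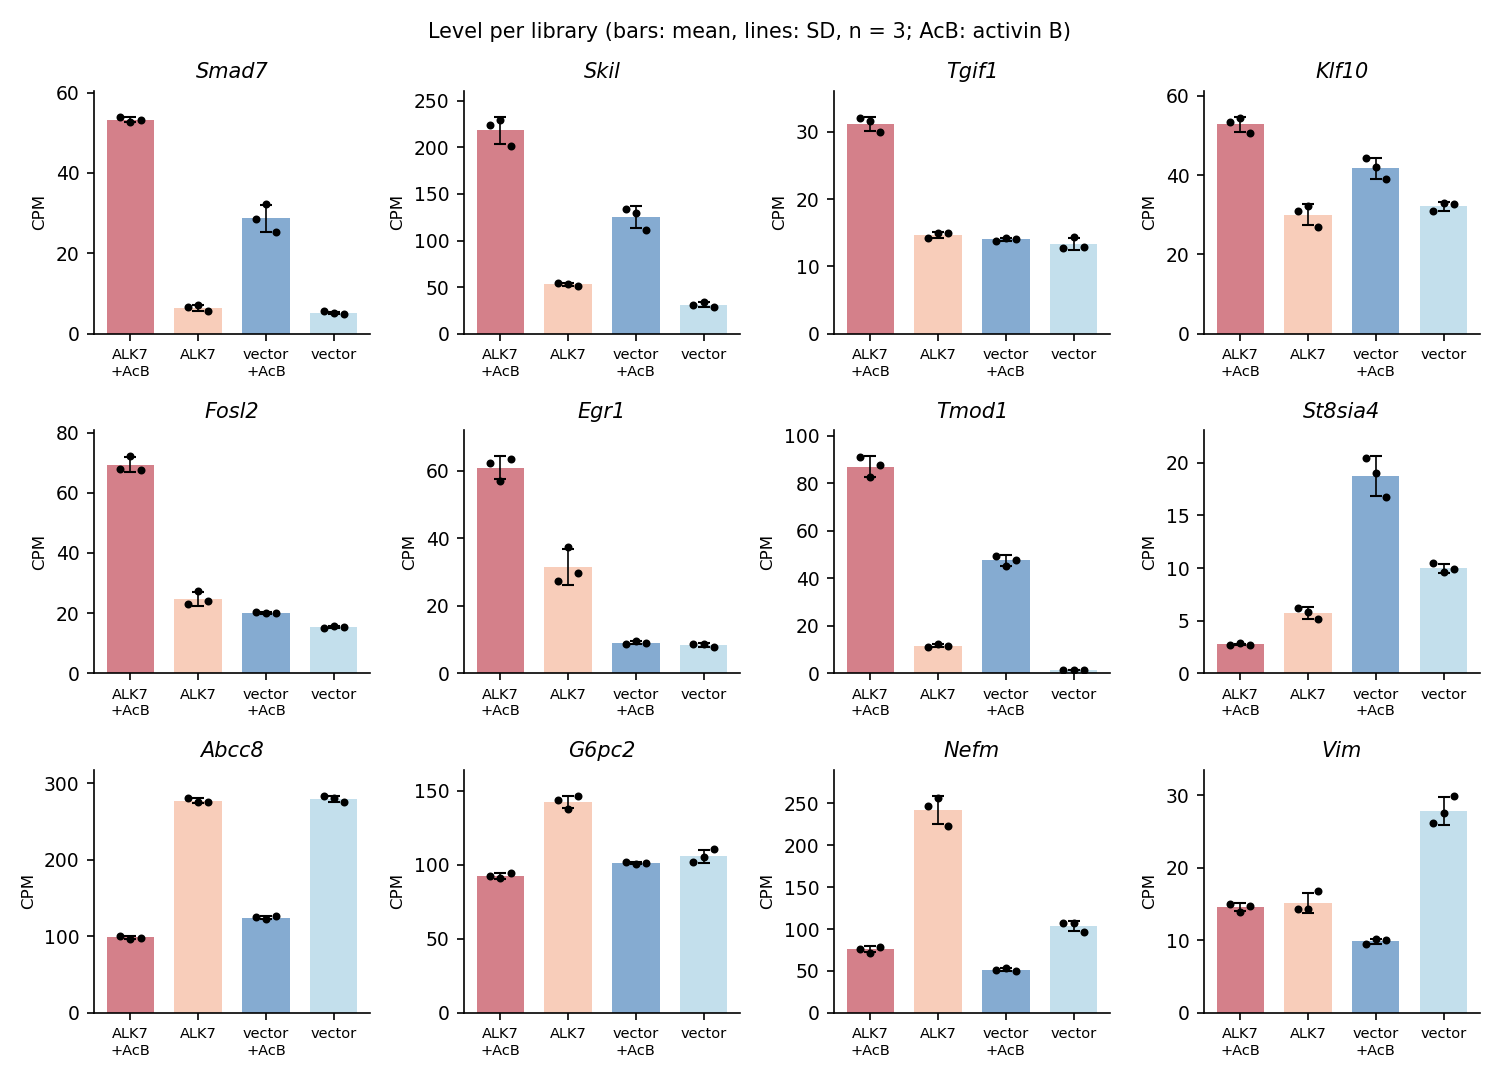
CPM of 12 genes in each library (points) with the mean (bar) and SD (line) of 3 libraries per group, from left to right ALK7 cells with activin B, ALK7 cells without it, vector cells with it and vector cells without it. Skil was 4.11-fold and 4.01-fold higher with activin B in ALK7 and vector cells, Tgif1 and Fosl2 were highest in ALK7 cells with activin B, and St8sia4 was higher with activin B in vector cells and lower with it in ALK7 cells.

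Immediate early genes are those that cells switch on within minutes of a stimulus. Of 18 tested members 13 rose and 1 fell with activin B in ALK7 cells, and 6 rose and 1 fell in vector cells, where 16.5% and 11.6% of all tested genes rose. The effect differed in 3, all more positive in ALK7 cells, as in 1.15% of all tested genes. Fosl2 (ENSMUSG00000029135), which encodes the AP-1 subunit FRA2, read 67.9, 72.2 and 67.7 CPM in ALK7 cells with activin B and 22.9, 27.4 and 24.1 CPM without it, against 20.2, 19.9 and 19.95 CPM in vector cells with activin B and 15, 15.6 and 15.5 CPM without it. The groups did not overlap, and Fosl2 already stood 1.62-fold higher in ALK7 cells without ligand. It rose 2.79-fold in ALK7 cells and 1.31-fold in vector cells (difference 1.098, SE 0.0903, adjusted p = 6.94e-05). Egr1, a zinc finger factor, read 62.2, 57.1 and 63.5 CPM in ALK7 cells with activin B and 27.5, 37.4 and 29.6 CPM without it, against 8.60, 9.47 and 8.90 CPM in vector cells with activin B and 8.68, 8.75 and 7.70 CPM without it. Its effect differed by 0.85 (SE 0.153, adjusted p = 0.0118), and its gap without ligand was 3.75-fold. In vector cells of batch 1, 24 h of dox alone went with a higher Egr1 as well (log2 change 0.98, adjusted p = 0.0119), and its part in the gap was not tested. The number of calls for dox alone ran from 24 to 1414 without 1 library, and single genes, here and below, were not checked that way. Nr4a1, an orphan nuclear receptor, differed by 0.85 (SE 0.165, adjusted p = 0.0183), with a rise in both, but not without replicate 1 of ALK7 cells with activin B, replicate 1 of vector cells with it or replicate 1 of vector cells without it (adjusted p at most 0.064). Without ligand Nr4a1 averaged 15.5 ± 1.95 CPM in ALK7 cells and 6.52 ± 0.525 CPM in vector cells (SD, n = 3 each). For Fos the difference did not pass (0.79, SE 0.205, adjusted p = 0.073). For Btg2, an antiproliferative gene, the rises of 1.35 and 1.27 on the log2 scale differed by 0.08 (SE 0.0628, adjusted p = 0.682).

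**Figure D4:**
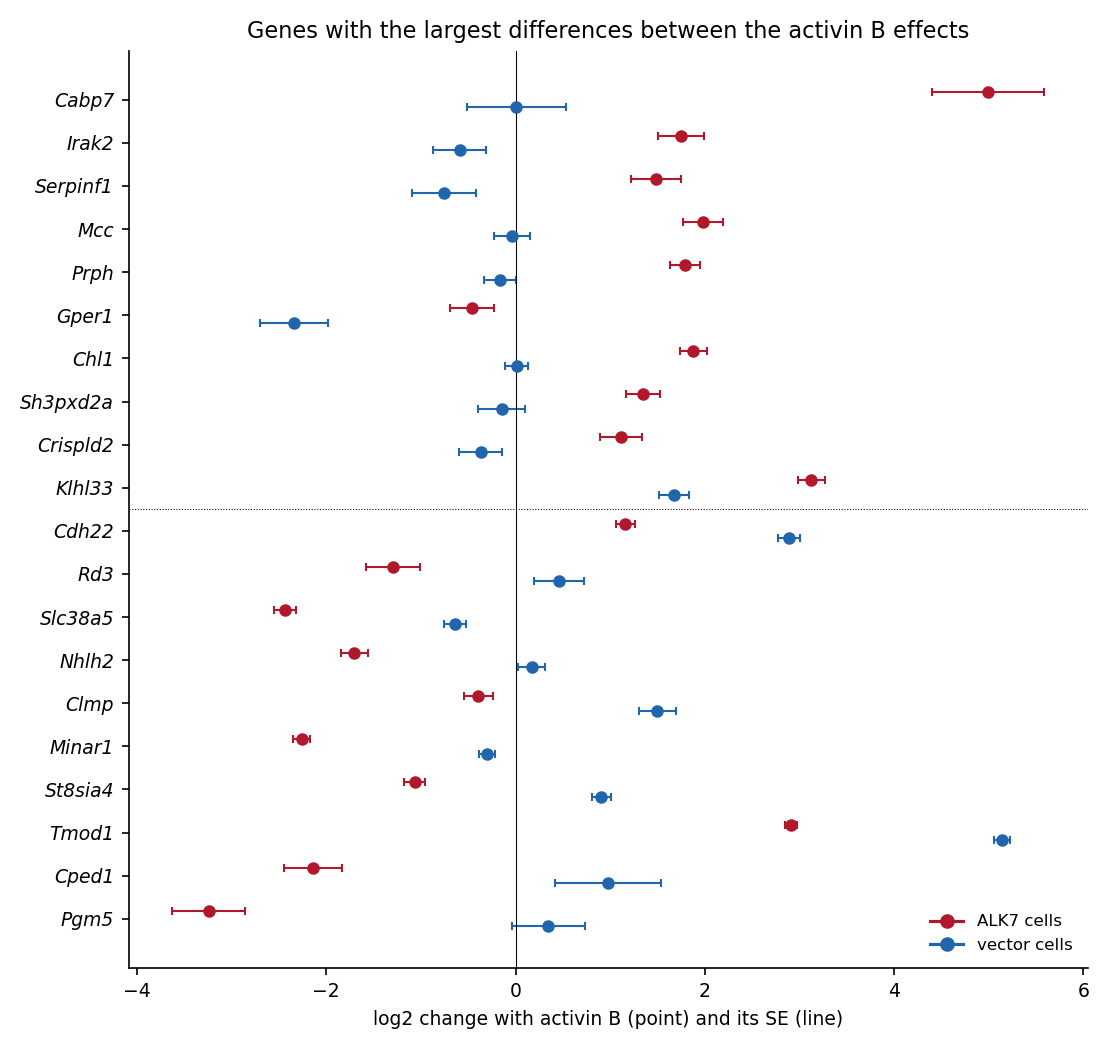
The log2 change with activin B and its SE in ALK7 cells (red) and vector cells (blue), for the 10 genes with the largest positive differences (above the dotted line) and the 10 with the largest negative ones, ordered by the difference. Tmod1 and Cdh22 rose in both kinds of cells, while St8sia4 rose in vector cells and fell in ALK7 cells.

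The largest negative differences held 3 patterns. In the first, genes rose in both kinds of cells and were already higher in ALK7 cells without ligand. Tmod1 (ENSMUSG00000028328, GRCm38 chromosome 4, 46038935 to 46116032, plus strand), which encodes tropomodulin 1, a cap of actin filament ends, read 91.3, 82.5 and 87.6 CPM in ALK7 cells with activin B and 11.2, 12.3 and 11.3 CPM without it, against 49.6, 45.3 and 47.9 CPM in vector cells with activin B and 1.22, 1.39 and 1.44 CPM without it. The fold was thus smaller in ALK7 cells, 7.51-fold against 35.2-fold (difference −2.23, SE 0.112, adjusted p = 1.69e-06), while the gain in CPM was larger there, 75.5 CPM against 46.2 CPM. Tmod1 overlaps Tstd2 on the other strand. Cdh22, a cadherin, rose 2.24-fold in ALK7 cells and 7.42-fold in vector cells (difference −1.73, SE 0.154, adjusted p = 0.000136), and read 12.8 to 16.0 CPM in ALK7 cells and 2.62 to 2.80 CPM in vector cells without ligand. In 25 of the 381 genes the difference in CPM had the opposite sign to that on the log2 scale, and in 23 of these, as in Tmod1, the log2 difference was the negative one.

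In the second pattern genes fell in ALK7 cells and fell less, or did not pass, in vector cells. Minar1 read 3.16, 3.52 and 3.39 CPM in ALK7 cells with activin B and 14.9, 16.5 and 17.0 CPM without it, against 12.3, 13.9 and 11.8 CPM in vector cells with activin B and 15.8, 15.04 and 16.2 CPM without it. It started at like levels (log2 difference without ligand 0.04, adjusted p = 0.787), fell 4.79-fold in ALK7 cells and 1.24-fold in vector cells, and differed by −1.96 (SE 0.126, adjusted p = 1.91e-05). Slc38a5, a glutamine transporter, read 7.64, 8.16 and 7.34 CPM in ALK7 cells with activin B and 41.7, 44.5 and 39.4 CPM without it, against 10.9, 11.1 and 13.03 CPM in vector cells with activin B and 19.1, 20.6 and 14.9 CPM without it (difference −1.80, SE 0.161, adjusted p = 0.000136). Slc38a5 fell in both, was higher in ALK7 cells without ligand, and was lower with dox alone in batch 1 (log2 change −0.36, adjusted p = 0.0266). Nhlh2, a neuronal helix-loop-helix factor, and Pgm5, a phosphoglucomutase relative of adherens junctions, fell in ALK7 cells and did not pass in vector cells (differences −1.87 and −3.59, adjusted p = 0.000484 and 0.00457). Without ligand Nhlh2 averaged 5.43 CPM in ALK7 cells and 2.42 CPM in vector cells, and Pgm5 1.79 CPM in ALK7 cells and 0.459 CPM in vector cells. Cped1 and Rd3 had differences of −3.12 and −1.76, calls lost in 5 and 10 of 18 alternatives. Their means without ligand were 2.42 CPM in ALK7 cells and 0.126 CPM in vector cells for Cped1, and 1.20 CPM in ALK7 cells and 0.859 CPM in vector cells for Rd3.

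In the third pattern genes rose in vector cells. St8sia4, a polysialyltransferase, read 2.68, 2.84 and 2.69 CPM in ALK7 cells with activin B and 6.22, 5.80 and 5.17 CPM without it, against 20.5, 19.0 and 16.7 CPM in vector cells with activin B and 10.4, 9.64 and 9.86 CPM without it. No library of any group overlapped another group, and the effects were called in opposite directions (difference −1.98, SE 0.146, adjusted p = 4.26e-05). Clmp, an adhesion molecule of tight junctions, rose 2.82-fold in vector cells, and the effect in ALK7 cells, where it was higher without ligand, did not pass (difference −1.89, SE 0.249, adjusted p = 0.00156). Its ligand-free mean was 3.90 CPM in ALK7 cells and 0.640 CPM in vector cells.

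The largest positive differences were, in 8 of the 10 genes, rises in ALK7 cells with no passing effect in vector cells. Prph, the intermediate filament peripherin, read 14.2, 14.3 and 14.6 CPM in ALK7 cells with activin B and 3.85, 4.30 and 4.31 CPM without it, against 2.15, 2.11 and 3.35 CPM in vector cells with activin B and 2.71, 2.56 and 3.21 CPM without it (difference 1.96, SE 0.232, adjusted p = 0.000807). Chl1, a neural adhesion molecule, read 5.74, 5.67 and 5.30 CPM in ALK7 cells with activin B and 1.68, 1.23 and 1.62 CPM without it, against 9.16, 8.79 and 7.59 CPM in vector cells with activin B and 7.55, 8.97 and 8.81 CPM without it (difference 1.86, SE 0.188, adjusted p = 0.000307). Chl1 thus stayed below vector cells even after its rise, and the ligand-free gap was −2.48 on the log2 scale. Mcc was also lower in ALK7 cells without ligand, and read 4.23, 3.28 and 3.59 CPM in ALK7 cells with activin B and 0.938, 1.17 and 0.7003 CPM without it, against 3.18, 2.61 and 2.09 CPM in vector cells with activin B and 2.94, 2.62 and 2.55 CPM without it. Its 3 libraries of ALK7 cells with activin B lay above the 6 of vector cells, though ALK7 against vector cells with ligand did not pass (log2 difference 0.49, adjusted p = 0.063). The effects of activin B on Mcc differed (difference 2.02, SE 0.286, adjusted p = 0.00255).

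Irak2, a kinase of interleukin-1 receptor signalling, read 2.48, 3.18 and 2.41 CPM in ALK7 cells with activin B and at most 1.22 CPM in the other 9 libraries, with ligand-free means of 0.795 CPM in ALK7 cells and 0.870 CPM in vector cells (difference 2.34, SE 0.374, adjusted p = 0.00574). Klhl33 rose in both, 8.73-fold in ALK7 cells and 3.20-fold in vector cells (difference 1.45, SE 0.215, adjusted p = 0.00346), with ligand-free means of 1.53 CPM in ALK7 cells and 0.857 CPM in vector cells. Cabp7, a calcium-binding protein gene, read 1.36, 1.27 and 1.31 CPM in ALK7 cells with activin B and held 2 counts over the 3 libraries without it, against at most 0.443 CPM in vector cells. Its fitted difference of 4.98 depends on that group of 2 counts, and it overlaps the more abundant Zmat5 on the other strand. Serpinf1, Sh3pxd2a, Crispld2 and Gper1 complete the 10, with differences of 2.24, 1.49, 1.48 and 1.88 and calls lost in 3, 7, 9 and 10 of 18 alternatives. Without ligand Serpinf1 averaged 0.739 CPM in ALK7 cells and 0.640 CPM in vector cells, and Sh3pxd2a 2.47 CPM in ALK7 cells and 0.805 CPM in vector cells. Crispld2 averaged 0.885 CPM in ALK7 cells and 1.33 CPM in vector cells, and Gper1 3.78 CPM in ALK7 cells and 1.17 CPM in vector cells. Gper1 fell in vector cells and did not pass in ALK7 cells, and it overlaps the more abundant 3110082I17Rik on the other strand.

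Vim, the intermediate filament vimentin, also differed through a fall in vector cells. It read 14.99, 13.9 and 14.8 CPM in ALK7 cells with activin B and 14.4, 14.3 and 16.8 CPM without it, against 9.44, 10.1 and 10 CPM in vector cells with activin B and 26.2, 27.5 and 30.0 CPM without it. The groups overlapped in ALK7 cells and stood apart in vector cells, where it fell 2.83-fold (difference 1.45, SE 0.112, adjusted p = 5.31e-05). Vcan, the matrix proteoglycan versican, fell in vector cells in the same way, to 4.34 to 4.44 CPM against 7.58 to 7.98 CPM, and did not pass in ALK7 cells (difference 0.67, SE 0.117, adjusted p = 0.00969), with 11.96 CPM on average in ALK7 cells without ligand. Of 9 tested epithelial and mesenchymal genes and 18 tested matrix proteins, Vim and Vcan were the members that differed. Of all tested genes 1.15% differed upward, as these did.

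Activin B raised 4 and lowered 6 of 16 tested genes of glucose sensing and secretion in ALK7 cells. It raised 5 and lowered 6 in vector cells. Of all tested genes 16.5% rose and 16.3% fell in ALK7 cells, and 11.6% and 10.9% in vector cells. The effect differed in 2 of the 16, both more negative in ALK7 cells, where 1.41% of all tested genes differed that way. Abcc8, the sulfonylurea receptor subunit of the channel that couples glucose to secretion, read 100.9, 96.7 and 98.3 CPM in ALK7 cells with activin B and 281, 276 and 275 CPM without it, against 125, 122 and 126 CPM in vector cells with activin B and 284, 281 and 276 CPM without it. The groups without ligand overlapped (log2 difference −0.01, adjusted p = 0.773). It fell 2.81-fold in ALK7 cells and 2.25-fold in vector cells, a small difference with a small error (−0.32, SE 0.0435, adjusted p = 0.00201). G6pc2, an islet glucose-6-phosphatase, read 92.3, 90.7 and 94.2 CPM in ALK7 cells with activin B and 143.5, 138 and 146 CPM without it, against 102, 101 and 101 CPM in vector cells with activin B and 102, 105.5 and 110.4 CPM without it. It fell in ALK7 cells, where it was higher without ligand, and did not pass in vector cells (difference −0.56, SE 0.0541, adjusted p = 0.000248).

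Iapp, which encodes the islet peptide amylin, read 455, 459 and 471 CPM in ALK7 cells with activin B and 584, 593 and 563 CPM without it, against 685, 689 and 682 CPM in vector cells with activin B and 666, 689 and 618 CPM without it (difference −0.39, SE 0.0572, adjusted p = 0.00321). Dox alone in batch 1 went with a lower Iapp (log2 change −0.45, adjusted p = 0.0291). Gcg, glucagon, fell in both (log2 change −2.01 and −1.58, difference −0.43, SE 0.258, adjusted p = 0.553), and was lower with dox alone (log2 change −0.67, adjusted p = 0.00666). Of 13 granins and processing enzymes Ptprn2, a granule membrane protein, and Pcsk2, a prohormone convertase, fell further in ALK7 cells (differences −0.30 and −0.22, SE 0.0459 and 0.0414, adjusted p = 0.00394 and 0.0146). Of all tested genes 1.41% differed downward. Without ligand Ptprn2 averaged 859 CPM in ALK7 cells and 1114 CPM in vector cells, and Pcsk2 717 CPM in ALK7 cells and 622 CPM in vector cells. Of 22 tested endocrine transcription factors 0 differed, near the 2.56% of all tested genes. Pdx1 fell in both, by 0.69 and 0.59 on the log2 scale (difference −0.10, SE 0.107, adjusted p = 0.791).

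In the list of vesicle exocytosis genes 8 of 22 members differed, 7 more negative and 1 more positive in ALK7 cells, where 1.41% and 1.15% of all tested genes did. Activin B raised 10 and lowered 3 of the 22 in ALK7 cells, and raised 13 and lowered 1 in vector cells. Of all tested genes 16.5% rose and 16.3% fell in ALK7 cells, and 11.6% and 10.9% in vector cells. Syt7, a calcium sensor of slow release, read 159.9, 158 and 162 CPM in ALK7 cells with activin B and 167, 171.5 and 163 CPM without it, against 243, 243.5 and 229.9 CPM in vector cells with activin B and 195, 199 and 195 CPM without it. It rose in vector cells and did not pass in ALK7 cells (difference −0.35, SE 0.0479, adjusted p = 0.00216). Snap25, a SNARE protein of the plasma membrane, rose in both and by less in ALK7 cells (log2 change 0.28 and 0.63, adjusted p of the difference 0.034), as did the small GTPase gene Rab3c (0.18 and 0.53, adjusted p of the difference 0.0121). Syt1, the fast calcium sensor, fell in ALK7 cells and did not pass in vector cells (difference −0.75, SE 0.132, adjusted p = 0.01). Rab27a, Cadps and the vesicle protein gene Syp had differences of −0.29, −0.24 and −0.23. Syt5 was the exception, with a rise of 3.24-fold in ALK7 cells and 1.92-fold in vector cells (difference 0.75, SE 0.139, adjusted p = 0.0134). The calls of Rab27a, Syt5, Snap25, Cadps and Syp were lost in 2, 4, 8, 9 and 11 of 18 alternatives. Among these members, those higher in ALK7 cells without ligand were Rab3c, with means of 184 CPM in ALK7 cells and 96.1 CPM in vector cells, Snap25, with 268 and 201 CPM, Syp, with 227 and 206 CPM, and Syt1, with 11.96 and 9.06 CPM. Rab27a was lower, with 122 CPM in ALK7 cells and 140.0 CPM in vector cells, as was Syt7, with 167 and 196 CPM. The ligand-free gap did not pass for Cadps, with 199 and 206 CPM, or Syt5, with 8.63 and 10.5 CPM. The summed neuroendocrine markers, given above, were lower in ALK7 cells than in vector cells with and without ligand. By member, 5 of the 12 were higher and 5 lower without ligand, and 3 higher and 7 lower with it. Of all tested genes 14.5% were higher and 14.6% lower without ligand, and 17.3% and 17.2% with it. The part of these markers in the values of the exocytosis genes was not tested.

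Ephrin, semaphorin and other guidance genes, which steer axons and cell contacts, differed in 8 of 33 tested members, 6 more positive and 2 more negative in ALK7 cells, where 1.15% and 1.41% of all tested genes did, and 4 of the 8 calls were lost in 9 or more of 18 alternatives. Plxna2, a semaphorin receptor, read 132, 129 and 129 CPM in ALK7 cells with activin B and 48.5, 46.6 and 49.3 CPM without it, against 94.7, 96.1 and 99.8 CPM in vector cells with activin B and 49.4, 52.9 and 50.9 CPM without it. From like ligand-free levels (log2 difference −0.09, adjusted p = 0.143) it rose 2.70-fold and 1.90-fold, a difference of 0.51 (SE 0.0559, adjusted p = 0.000484). Sema3c, a secreted semaphorin, read 128, 117.5 and 109 CPM in ALK7 cells with activin B and 37.3, 37.8 and 36.0 CPM without it, against 149, 145 and 130.3 CPM in vector cells with activin B and 68.8, 76.4 and 65.0 CPM without it (difference 0.66, SE 0.105, adjusted p = 0.00548). It was lower in ALK7 cells without ligand. Unc5b, a netrin receptor, rose in ALK7 cells, where it had been lower without ligand (3.19 against 6.11 CPM in the means), and did not pass in vector cells (difference 1.26, SE 0.162, adjusted p = 0.00138). Robo2, a receptor of SLIT proteins, fell in ALK7 cells and did not pass in vector cells (difference −0.46, SE 0.0656, adjusted p = 0.00272). Nrp1, Plxnb1, Ephb6 and Efnb3 had differences of 0.29, 0.21, 1.00 and −0.26, calls lost in 11, 12, 16 and 9 of 18 alternatives. Without ligand Robo2 averaged 94.5 CPM in ALK7 cells and 108 CPM in vector cells, and Nrp1 120.4 CPM in ALK7 cells and 86.95 CPM in vector cells. Efnb3 averaged 107 CPM in ALK7 cells and 122 CPM in vector cells, Plxnb1 82.3 and 78.6 CPM, and Ephb6 1.18 and 1.62 CPM, and the gap did not pass for Plxnb1 and Ephb6.

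Of 17 neuronal cytoskeleton genes Prph, given above, differed upward and Nefm and Stmn4 downward, where 1.15% and 1.41% of all tested genes did. Nefm, the medium neurofilament, read 76.6, 71.9 and 79.0 CPM in ALK7 cells with activin B and 247, 257 and 223 CPM without it, against 51.5, 52.9 and 49.7 CPM in vector cells with activin B and 107, 107 and 96.9 CPM without it. It was 2.34-fold higher in ALK7 cells without ligand and fell 3.19-fold there, against 2.02-fold in vector cells (difference −0.66, SE 0.0845, adjusted p = 0.00129). It overlaps Nefl, the light neurofilament, on the other strand, which fell in both (log2 change −1.63 and −1.53). Stmn4, a stathmin, rose in both (difference −0.54, adjusted p = 0.0194), lost in 3 of 18 alternatives, and averaged 39.2 CPM in ALK7 cells and 5.50 CPM in vector cells without ligand. In this list 14 of 17 were higher and 0 lower in ALK7 cells without ligand, where 14.5% and 14.6% of all tested genes were.

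Cell cycle genes fell with activin B in both kinds of cells. Of 24 genes of G2 and mitosis 23 fell in ALK7 cells and 20 in vector cells, where 16.3% and 10.9% of all tested genes fell, and 0 rose in either. Their median log2 change was −0.34 and −0.24. The proliferation marker Mki67 read 1352, 1409 and 1367 CPM in ALK7 cells with activin B and 1819, 1721 and 1676 CPM without it, against 1690, 1710 and 1614 CPM in vector cells with activin B and 1946, 2031 and 1936 CPM without it (difference −0.10, SE 0.0538, adjusted p = 0.494). Of 24 and 22 tested members of the 2 cell cycle lists 1 each differed, downward, as did 1.41% of all tested genes. These were Kif23 and the replication gene Cdc6 (−0.20 and −0.21, adjusted p = 0.0406 and 0.049), calls lost in 10 and 14 of 18 alternatives. Their ligand-free means were 151 CPM in ALK7 cells and 152 CPM in vector cells for Kif23, and 79.9 CPM in ALK7 cells and 79.7 CPM in vector cells for Cdc6. Cdkn2b, the inhibitor p15, rose 2.55-fold in ALK7 cells and 1.60-fold in vector cells (difference 0.68, SE 0.24, adjusted p = 0.216), and Cdkn1a, the inhibitor p21, 1.18-fold and 1.42-fold (difference −0.27, SE 0.082, adjusted p = 0.125). Of 9 tested CDK inhibitors and D cyclins 0 differed, and of 8 BH3-only genes 0 differed, near the 2.56% of all tested genes.

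Of 19 tested members of the chaperone list and 20 of the integrated stress response, 2 each differed. All were more positive in ALK7 cells, where 1.15% of all tested genes differed that way. The 2 of the chaperone list were Hspa5 and Xbp1. Hspa5, the chaperone BiP, read 979, 1021 and 1034 CPM in ALK7 cells with activin B and 978, 1004 and 998 CPM without it, against 593, 588 and 620.4 CPM in vector cells with activin B and 690, 697 and 693 CPM without it. It fell in vector cells and did not pass in ALK7 cells (difference 0.23, SE 0.0461, adjusted p = 0.0196). Chac1, a target of the integrated stress response, rose in ALK7 cells and did not pass in vector cells (difference 0.55, SE 0.093, adjusted p = 0.00799). The calls of Hspa5, Xbp1 and Nupr1 (differences 0.23, 0.23 and 0.54) were lost in 11, 11 and 14 of 18 alternatives. Without ligand Chac1 averaged 29.7 CPM in ALK7 cells and 21.96 CPM in vector cells, Xbp1 130.1 and 98.7 CPM, and Nupr1 12.01 and 6.87 CPM. Ndrg1, a hypoxia-responsive gene, fell in both and further in ALK7 cells (difference −0.48, SE 0.0547, adjusted p = 0.000636), with ligand-free means of 186 CPM in ALK7 cells and 258 CPM in vector cells. Without ligand 15 of 19 members of the chaperone list and 12 of 20 genes of the integrated stress response were higher in ALK7 cells. Of 26 interferon response genes 17 were lower there, where 14.5% of all tested genes were higher and 14.6% lower. In the interferon list 0 of 26 differed in their response to activin B, as in cholesterol and fatty acid synthesis (0 of 26), oxidative phosphorylation (0 of 26), mitochondrial ribosomal proteins (0 of 28), ion channels (0 of 23) and the Notch pathway (0 of 16). With 2.56% of all tested genes differing, a count of 0 in lists of this size is near the overall share. By edgeR, 1938 of all tested genes had an unadjusted p under 0.05 for the difference, and by DESeq2 473 passed after adjustment.

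**Figure D5:**
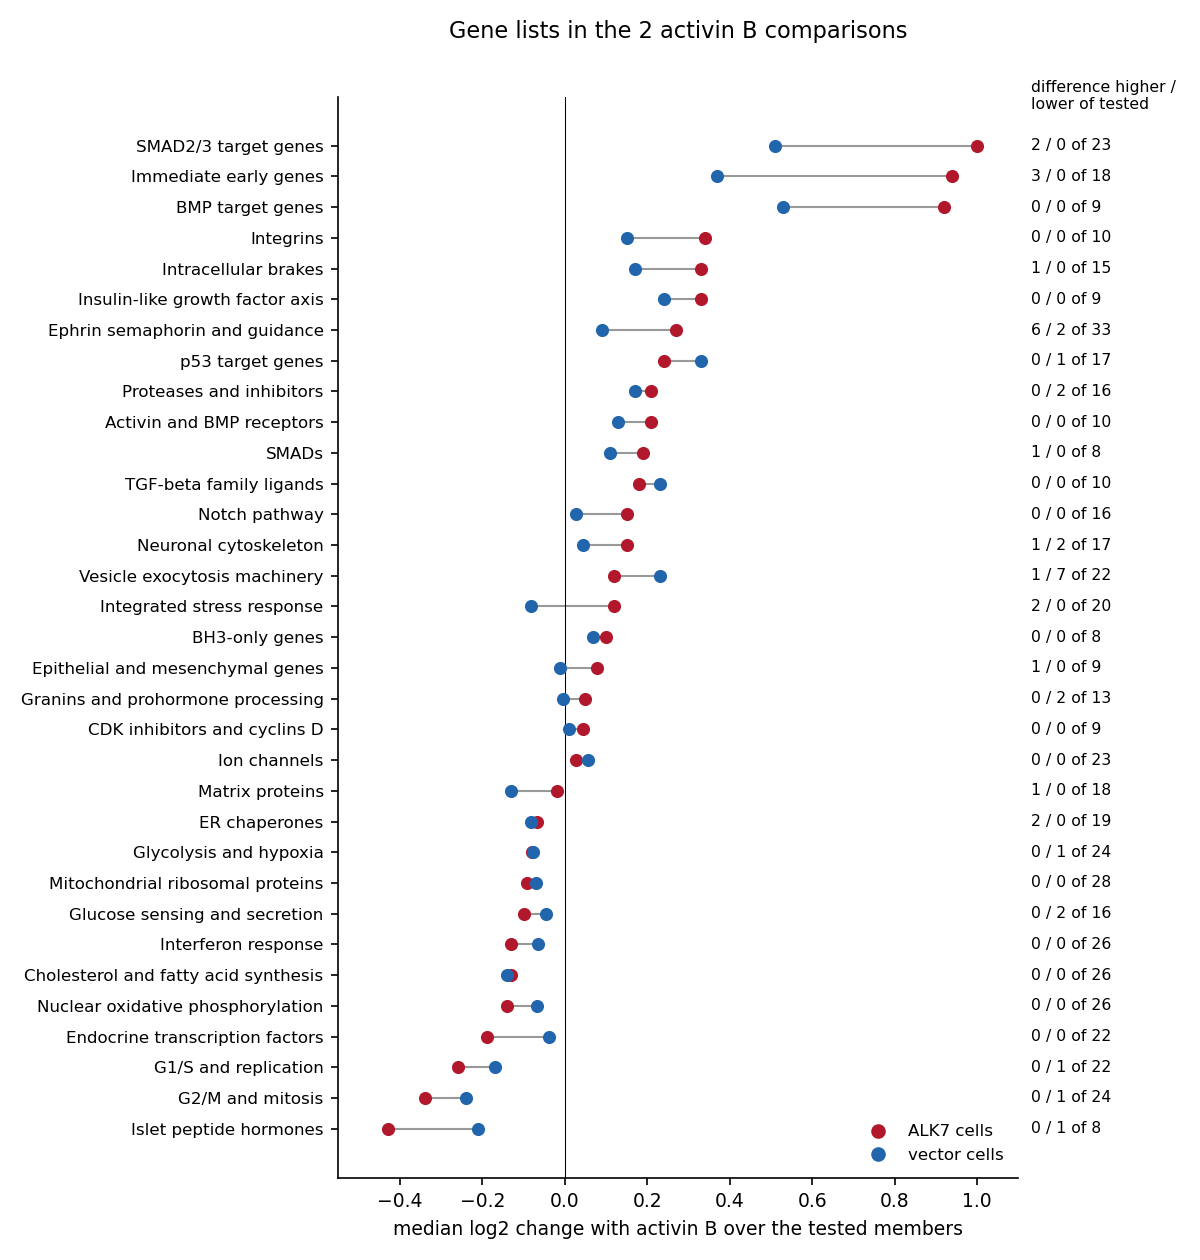
The median log2 change with activin B over the tested members of each gene list in ALK7 cells (red) and vector cells (blue), for lists with at least 8 tested members, with the number of members whose effect differed upward and downward at the right. SMAD2/3 target genes have medians of 1.0 and 0.51, and genes of G2 and mitosis −0.34 and −0.24.

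The single effects had their largest changes in genes that were near 0 in 1 group. Tmem91 read 14.5, 14.4 and 16.9 CPM in ALK7 cells with activin B and at most 0.0539 CPM without it, against 3.83, 3.34 and 4.07 CPM in vector cells with activin B and 0 CPM in all 3 without it. It overlaps Exosc5 on the other strand. Steap4, a metalloreductase, read 3.51 to 3.65 CPM in ALK7 cells with activin B and at most 0.0558 CPM without it, against 1.04 to 1.42 CPM in vector cells with activin B and at most 0.0554 CPM without it. Angptl2, an angiopoietin-like protein, read 2.20 to 2.48 CPM in ALK7 cells with activin B and 0 CPM in each library of both groups without it, and at most 0.374 CPM in vector cells with it, and it overlaps the more abundant Ralgps1 on the other strand. Oas1e, an oligoadenylate synthetase gene, rose in both, to 0.925 to 1.03 CPM in ALK7 cells, against 0 CPM without ligand. For Tmem91, Steap4 and Angptl2 both groups without ligand held 0 or 1 counts, so the difference of log2 effects could not be read. In CPM the gain was larger in ALK7 cells, 15.2 against 3.75 CPM for Tmem91, 3.56 against 1.24 CPM for Steap4 and 2.38 against 0.158 CPM for Angptl2. For Oas1e, with 0 counts in ALK7 cells without ligand, the difference did not pass (adjusted p = 0.0845). Sgcz, a sarcoglycan, fell in ALK7 cells, to at most 0.0816 CPM, against 0.296 to 0.593 CPM without ligand. Ppp1r17 was higher without ligand in ALK7 cells, at 1.347 to 2.172 CPM against 0 CPM in vector cells. Among the largest single changes were also processed pseudogenes, whose reads cannot be told from those of their parent genes, and they are not described.

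Without ligand, 4319 genes differed between ALK7 and vector cells, 2150 higher and 2169 lower in ALK7 cells (29.0% of tested genes), and with ligand 5143 differed (34.6%). These comparisons share libraries with the activin B effects, so they are given as levels only. Ttr, transthyretin, read 195, 187 and 206 CPM in ALK7 cells with activin B and 225, 228 and 215 CPM without it, against 879, 889 and 849 CPM in vector cells with activin B and 1014, 1071 and 986 CPM without it. The groups of ALK7 cells lay far below those of vector cells, and the difference of activin B effects did not pass (0.05, SE 0.0635, adjusted p = 0.86). Mmp2, a matrix metalloprotease, was 6.37-fold higher in ALK7 cells without ligand and rose in both (difference 0.35, SE 0.0993, adjusted p = 0.11).

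For AJ cells dox was measured apart from the plasmid in batch 1, where vector cells of the same line after 24 h of dox were set against 0 h. There 229 of 15026 genes passed (1.52%), 133 higher (0.885%) and 96 lower (0.639%) at 24 h, a count that ran from 24 without replicate 1 of the 24 h group to 1414 without replicate 3 of it. Of the 381 genes, 374 were tested there and 18 passed (4.81%). Among the genes named above Egr1, Nupr1 and Btg2 were higher with dox alone, and Kif23, Iapp, Gcg, Slc38a5 and Ttr lower. Whether these single calls held without 1 library was not tested. Among the ligand-free differences, 4242 genes were tested there, 110 passed and 38 of these had the same direction, and across genes the 2 log2 changes had a Pearson r of −0.0743. Batch 1 holds no activin B, so dox during the ligand response was not measured.

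Batch 1 also holds AJ cells with constitutively active ALK7 (ALK7-CA) after 24 h of dox, with no library in common with the 12. Of the genes it raised by 2-fold or more against vector cells at 24 h (914 of 15018 tested, 6.09%), 748 were tested here. Their median log2 change with activin B was 0.833 in ALK7 cells and 0.571 in vector cells, and the difference passed upward in 65 (8.69%) and downward in 16 (2.14%), against 1.15% and 1.41% of all tested genes. Of the genes it lowered (659, 4.39%), 636 were tested here, with medians of −0.602 and −0.434, and the difference passed upward in 3 (0.472%) and downward in 60 (9.43%). Replicate 1 of the ALK7-CA group held 626 CPM of Ins2 by its total count, against 0.0726 and 0.137 CPM in replicates 2 and 3, and βTC3 cells, the other line, held 7224 to 9327 CPM at the same time with the same plasmid. Without replicate 1 the counts were 68 and 17 of 736 genes, and 5 and 72 of 725.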

How the data were processed

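Gene counts were used as deposited. Per the labels' protocols, polyadenylated RNA was prepared with a TruSeq stranded kit. The mm10 build, featureCounts 1.4.4, HISAT2, cutadapt 1.4.2, bcl2fastq 2.17 and edgeR were named, per the submitters' processing notes. Not given in the sources used here were the HISAT2 and edgeR versions, the strand setting and the annotation release. The 48 per-sample tables equalled the series table. Of 39017 identifiers 37607 took a symbol from the GENCODE annotation of GRCm38.

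Genes with low counts were removed (filterByExpr, minimum count 10, total 15), libraries were scaled by TMM, and the 4 groups of 3 were fitted with edgeR's quasi-likelihood test (edgeR 4.0.16, R 4.3.3), with Benjamini-Hochberg adjustment at 0.05 over all tested genes. The log2 differences carry an SE from the F statistic. Vector cells of batch 1 were fitted apart. DESeq2 1.42.0, limma 3.58.1, other scalings and filters, a replicate block and leaving out each library were the alternatives. On simulated counts for the difference of effects (14715 genes), 55% of 1.5-fold, 78.8% of 2-fold and 90% of 4-fold differences were found, with 6 false calls. The changes were planted only in genes that averaged at least 1 CPM over the groups, and the 4-fold ones only upward. Counts were drawn independently for each library, with nothing shared between replicates of the same number. The rates and the false calls therefore do not cover genes at lower levels or such shared parts.

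The members and gene lists were chosen with earlier results of these data known. Genes were named by a rule: the 10 largest positive and 10 largest negative passing differences whose highest group averaged at least 20 counts, up to 2 passing members per list with the smallest adjusted p, the 3 largest rises and falls of each single effect, and a fixed set of pathway genes. Cadps, Efnb3, Ephb6, Nr4a1, Nrp1, Plxnb1, Rab27a, Rab3c, Robo2, Sema3c, Snap25, Stmn4 and Syt5, and further list members named for comparison, were chosen after their values were seen. Same-numbered replicates were not paired in the fit: in 0 of 6 pairs of groups did every same-numbered pair correlate above 0.1. Same-numbered pairs had r of −0.0954 to 0.593, and pairs with different numbers −0.544 to 0.459. For replicate 3 with replicate 3, r was 0.227 to 0.593 over the 6 pairs of groups. Any part that replicates share across groups is therefore left in the spread of the fit. No column was outside the sample map.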

Additional observations from a re-analysis of the deposited data

Results flagged for a closer look

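The effect of activin B differed between ALK7 and vector cells, by the test of the difference itself, in 381 genes, which flags that count and each of the passing genes named. The values are log2 differences, the change in ALK7 cells minus the change in vector cells, from edgeR's fit of the 12 libraries.

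The 10 largest positive differences were Cabp7 at 4.98, Irak2 at 2.34, Serpinf1 at 2.24, Mcc at 2.02, Prph at 1.96, Gper1 at 1.88, Chl1 at 1.86, Sh3pxd2a at 1.49, Crispld2 at 1.48 and Klhl33 at 1.45. The 10 largest negative ones were Pgm5 at −3.59, Cped1 at −3.12, Tmod1 at −2.23, St8sia4 at −1.98, Minar1 at −1.96, Clmp at −1.89, Nhlh2 at −1.87, Slc38a5 at −1.80, Rd3 at −1.76 and Cdh22 at −1.73.

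Of transcription factors, SMADs and early response genes, Fosl2 differed by 1.098, Tgif1 by 1.02, Egr1 by 0.85, Nr4a1 by 0.85, Smad9 by 0.69 and Klf10 by 0.44. Of guidance and cytoskeleton genes, Vim differed by 1.45, Unc5b by 1.26, Ephb6 by 1.00, Sema3c by 0.66, Plxna2 by 0.51, Nrp1 by 0.29, Plxnb1 by 0.21, Efnb3 by −0.26, Robo2 by −0.46, Stmn4 by −0.54 and Nefm by −0.66.

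Of secretory genes, Syt5 differed by 0.75, Pcsk2 by −0.22, Syp by −0.23, Cadps by −0.24, Rab27a by −0.29, Ptprn2 by −0.30, Abcc8 by −0.32, Syt7 by −0.35, Rab3c by −0.35, Snap25 by −0.36, Iapp by −0.39, G6pc2 by −0.56 and Syt1 by −0.75. Of stress, cell cycle and matrix genes, Vcan differed by 0.67, Chac1 by 0.55, Nupr1 by 0.54, Hspa5 by 0.23, Xbp1 by 0.23, Kif23 by −0.20, Cdc6 by −0.21, Adam19 by −0.38, Plk2 by −0.47, Ndrg1 by −0.48, Adam12 by −0.71 and Spp1 by −0.86.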

How the results depend on the processing

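The interaction count, the 381 genes whose activin B effect differed, became 623 with the replicate block. The labels do not tie equal numbers together, and same-numbered libraries did not correlate in every pair (r of −0.0954 to 0.593 over 8943 genes). Replicate 3 did correlate with replicate 3 in each pair of groups (r of 0.227 to 0.593), and the main fit holds no term for that. The count was 473 with DESeq2, 376 with RLE scaling, 330 with no filter on low counts, 403 at 1 CPM in 3 libraries and 394 with limma. Leaving out 1 library gave 239 to 363, with 244, 240 and 239 in the samples named in the report. The counts for activin B in ALK7 cells ran from 3961 to 5225 without 1 library, for activin B in vector cells from 2643 to 3303, for ALK7 without ligand from 3556 to 4620 and with ligand from 4151 to 5384, all within 1.5 times the reported counts. The 229 genes of dox alone in batch 1 were 715 with DESeq2, 118 with no filter and 1154 with the replicate block. They were 24, 39 and 1414 without replicates 1, 2 and 3 at 24 h, and 33, 26 and 36 without replicates 1, 2 and 3 at 0 h. The cause was not tested. Of 62 named differences 34 passed under each of 18 alternatives, none changed sign, and 25 of 26 that had not passed did not pass under any. Smad7 was the other one, with an adjusted p of 0.0229 under the replicate block and 0.0406 with DESeq2. In simulated counts with 3 libraries a group, 55% of 1.5-fold, 78.8% of 2-fold and 90% of 4-fold differences were recovered, so smaller differences could be missed. These rates are for genes that averaged at least 1 CPM and for libraries drawn independently. Genes at lower levels and parts shared by same-numbered replicates were not covered.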

Other observations

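Of 9 tested genes that respond to BMP signals, 7 rose and 1 fell with activin B in ALK7 cells, where 16.5% of all tested genes rose, and 4 rose and 5 did not pass in vector cells, where 11.6% rose. Id2, an inhibitor of helix-loop-helix factors, read 67.7, 70.3 and 71.9 CPM in ALK7 cells with activin B and 39.0, 39.1 and 41.1 CPM without it, against 98.6, 98.6 and 104.8 CPM in vector cells with activin B and 63.6, 66.8 and 79.1 CPM without it. It rose in both and was lower in ALK7 cells throughout, and the difference of effects did not pass (0.29, SE 0.099, adjusted p = 0.201). For Id1 the log2 changes were 1.91 in ALK7 cells and 0.71 in vector cells, and replicate 3 was the highest library in each of the 4 groups. The difference did not pass for any of the 9 (0 of 9), a count near the 2.56% of all tested genes that differed. The median difference over the 9 was 0.84, against −0.00023 over all tested genes.

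Plk2, a kinase among the p53 target genes, fell in ALK7 cells and rose in vector cells, with overlapping levels without ligand. It read 16.5, 18.1 and 16.4 CPM in ALK7 cells with activin B and 19.3, 19.9 and 20.3 CPM without it, against 21.97, 22.4 and 25.1 CPM in vector cells with activin B and 18.5, 19.1 and 20.8 CPM without it. The call was lost in 8 of 18 alternatives. Of the other 16 tested p53 target genes 0 differed, near the 2.56% of all tested genes. Adam12, a membrane metalloprotease, and Spp1, osteopontin and 1 of the duct markers, rose in vector cells and did not pass in ALK7 cells, and their calls were lost in 6 and 7 of 18 alternatives. Without ligand Spp1 averaged 9.41 CPM in ALK7 cells and 1.36 CPM in vector cells, and Adam12 10.7 CPM in ALK7 cells and 9.42 CPM in vector cells. Adam19 fell in ALK7 cells and did not pass in vector cells, and its call was lost in 8. Its ligand-free means were 36.8 CPM in ALK7 cells and 21.7 CPM in vector cells.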
